A study of Homo sapiens with 2 samples.

Results

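The 8 genes described here carry the synthesis, breakdown and reception of prostaglandins: PLA2G2A and PLA2G4A (release of arachidonic acid), PTGS1 and PTGS2 (cyclooxygenases), PTGES and PTGDS (terminal synthases), HPGD (breakdown) and PTGER4 (a receptor). They were picked by symbol for their roles, with earlier results of these data known, and were found once each among the 36601 genes of the deposited feature lists. Their UMIs were summed over all kept cells of each library and over epithelial and mesenchymal cells. A UMI (unique molecular identifier) marks 1 captured transcript molecule.

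The study used organoids differentiated toward colon from the human iPS cell line 1383D6, and compared an untreated library (CNT) with a library exposed for 8 days to 3 inflammatory cytokines (3CK): TNF-α, IFN-γ plus IL-1β, at doses the labels do not give. The series title presents the treated organoids as a model of ulcerative colitis. Both groups share the same line and the same differentiation, with Activin A and then FGF2, followed by embedding in Matrigel and a colonic medium whose additions include EGF, Forskolin, PD98059 and 5-Aza-2'-Deoxycytidine. The list of additions ends in mid-name in the labels used here, which also do not say whether these agents were present during the cytokine days, and the sample titles call the material epithelial cells. Each group was 1 library from about 8300 loaded cells, so no difference below has a replicate check, no test was made, and all intervals are 95% intervals that cover counting error only.

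After filtering, 2487 CNT cells and 1398 3CK cells were kept, with 101831571 and 91860414 UMIs and medians of 28911 and 62746 UMIs per cell. No barcode occurred in both libraries. A sum of 3 UMIs equals 0.0295 CPM in CNT and 0.0327 CPM in 3CK over all kept cells, and 0.153 and 0.329 CPM in mesenchymal cells. Levels below are CPM (counts per 1e6), the UMIs of a gene scaled to the UMI total of the same group of cells.

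Prostaglandins are lipid signals made on demand. Phospholipases free arachidonic acid from membrane lipids, cyclooxygenases turn it into an unstable intermediate, and terminal synthases turn that into the individual prostaglandins, which act on nearby cells through G-protein-coupled receptors until they are taken up and oxidised. In the intestine, stromal cells are known as a main source of prostaglandin E, which acts on epithelial repair and on immune cells, and the breakdown enzyme HPGD is known from the differentiated colonic epithelium.

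Epithelial cells were those with at least 2 EPCAM UMIs per 10000, and mesenchymal cells those with at least 5 UMIs per 10000 of COL1A1, COL1A2 and COL3A1 together and under 1 of EPCAM. By this rule 1660 CNT cells (66.7%) and 1016 3CK cells (72.7%) were epithelial, and 574 (23.1%) and 124 (8.87%) were mesenchymal, while 253 and 258 cells were neither. Near the EPCAM minimum, with 1 to 3 UMIs per 10000, lay 88 and 71 cells. The median depth was 37785 and 72198 UMIs in epithelial cells and 23450.5 and 65363 in mesenchymal cells. Both names were checked against marker genes. All 10 mesenchymal markers passed 1 CPM in the mesenchymal cells of each library, and their summed level was 14466 CPM in CNT against 9438 CPM in 3CK, while epithelial cells had 1576 and 842 CPM. All 8 epithelial markers passed 1 CPM in epithelial cells, but they did so in mesenchymal cells too. There KRT18 stood at 4930 CPM in CNT against 6968 CPM in 3CK, while CDH1 stood at 14.9 and 7.57 CPM. The epithelium also carried liver markers: TTR was at 64857 CPM in CNT against 19491 CPM in 3CK, beside CDX2, an intestinal transcription factor, at 80.6 and 83.3 CPM. For tuft cells, which express cyclooxygenase, TRPM5 was at 0.302 CPM or under in epithelial and mesenchymal cells. In these classes 1 or 2 of 7 tuft markers passed 1 CPM, with summed levels of 4.59 to 9.31 CPM. In the cells of neither class 3 of 7 passed in CNT and 4 of 7 in 3CK, with summed levels of 15.8 and 11.8 CPM. The Paneth cell gene DEFA5 was at 0 UMIs in all classes, and the mast cell gene TPSAB1 likewise. Other genes of both lists were seen. In epithelial cells 2 of 5 Paneth markers passed 1 CPM in CNT and 3 of 5 in 3CK, with summed levels of 45.5 and 21.2 CPM. Of the 6 mast markers, 1 passed there in each library, with summed levels of 6.39 and 4.89 CPM. In mesenchymal cells the Paneth sums were 14.0 and 0.987 CPM and the mast sums 14.5 and 2.63 CPM. The pan-leukocyte gene PTPRC was at 0.236 and 0.0856 CPM in epithelial cells and at 0.56 CPM in CNT against 3.62 CPM in 3CK mesenchymal cells. In mesenchymal cells 4 of 10 leukocyte markers passed 1 CPM in CNT and 5 of 10 in 3CK, with summed levels of 70.0 and 211 CPM. In epithelial cells 7 of 10 passed in CNT and 6 of 10 in 3CK, with summed levels of 99.3 and 116 CPM. The part of these cell types in the results was not tested.

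Over all kept cells, 2 of the 7 members that reached 1 CPM in at least 1 library were 2-fold or more higher in 3CK, PLA2G2A and PTGS2, and 1 was 2-fold or more lower, HPGD. Among all 17523 genes that reached 1 CPM, 6.96% were as much higher and 11.3% as much lower. In epithelial cells the same 3 members passed 2-fold in the same directions, against 8.48% of all genes higher and 12.1% lower. In mesenchymal cells no member was 2-fold higher and 2 were 2-fold lower, PTGS1 and HPGD, against 6.05% and 16.7% of all genes. The median log2 ratio of the passing members was -0.27 over all cells, -0.10 in epithelial cells and -0.35 in mesenchymal cells, where the median of all genes was -0.05, 0.01 and -0.21. The larger differences ran in opposite directions for a release enzyme and for the breakdown enzyme. The PTGS2 ratio over all cells lies on the 2-fold line itself, at 1.00 on the log2 scale, and 4 of 8 alternative settings put it just below, down to 0.81.

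**Figure D1:**
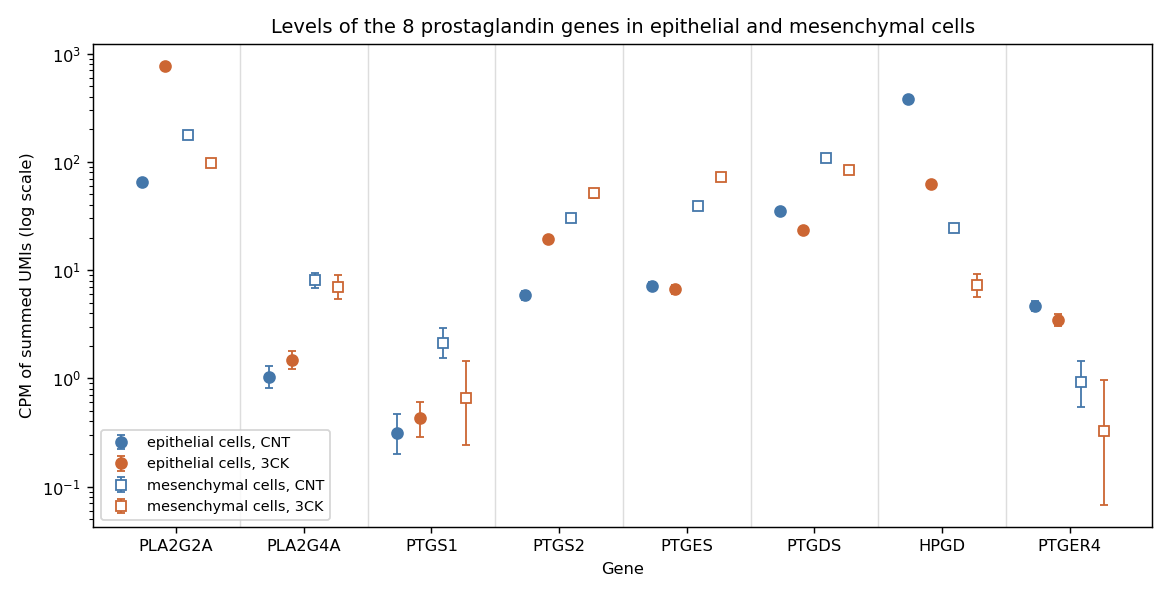
Levels of the 8 genes (x axis) in CPM of summed UMIs on a log axis, in epithelial (filled circles) and mesenchymal cells (open squares) of the CNT (blue) and 3CK (orange) library; bars are 95% Poisson intervals. PLA2G2A in epithelial cells stands at 65.6 CPM in CNT against 763 CPM in 3CK, and HPGD there at 379 and 61.8 CPM.

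The stretches just upstream of 3 transcription starts are shown because these are the 3 members that passed 2-fold between the libraries in epithelial cells. They come from RefSeq promoter windows of build GRCh38.p14, where all 8 members have an entry. Each is the 250 bases before the start, read 5′ to 3′ on the gene's strand. Capitals mark every match, on either strand, to 5 short patterns: GGG, any 5 bases and CC (an NF-κB type site), TTCNNNGAA (a GAS type site, bound by STAT factors), GAAA, any 2 bases and GAAA (an ISRE type site), TGACG (a short CRE site) and TATAA.
PTGS2, chr1:186680424-186680673, minus strand: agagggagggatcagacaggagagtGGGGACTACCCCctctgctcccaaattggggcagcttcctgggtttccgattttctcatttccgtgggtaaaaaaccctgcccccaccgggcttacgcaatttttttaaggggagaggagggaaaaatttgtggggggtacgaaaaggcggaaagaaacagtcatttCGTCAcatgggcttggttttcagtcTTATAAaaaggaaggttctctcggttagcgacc
PLA2G2A, chr1:19979619-19979868, minus strand: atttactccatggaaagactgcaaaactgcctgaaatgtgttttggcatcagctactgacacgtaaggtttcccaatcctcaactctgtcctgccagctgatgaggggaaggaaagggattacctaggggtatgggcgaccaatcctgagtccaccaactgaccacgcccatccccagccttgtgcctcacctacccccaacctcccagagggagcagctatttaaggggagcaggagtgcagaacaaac
HPGD, chr4:174522489-174522738, minus strand: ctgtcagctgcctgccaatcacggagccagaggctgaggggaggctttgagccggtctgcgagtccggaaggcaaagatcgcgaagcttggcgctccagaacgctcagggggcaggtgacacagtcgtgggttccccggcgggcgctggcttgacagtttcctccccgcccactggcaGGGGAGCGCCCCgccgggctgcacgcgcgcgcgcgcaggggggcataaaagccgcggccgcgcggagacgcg
The PTGS2 stretch holds 3 overlapping NF-κB type matches that begin 225 to 223 bases before the start, a TGACG match 58 bases before it and 2 overlapping TATAA matches 33 and 32 bases before it. The HPGD stretch holds 3 overlapping NF-κB type matches that begin 72 to 70 bases before the start, and these letters of the PLA2G2A stretch match none of the 5 patterns. Such matches are common: of 34943 windows of this length, 54.4% hold the NF-κB pattern, 21.2% TGACG, 19% TATAA, 6.56% TTCNNNGAA and 3.02% the ISRE pattern. A match describes letters only and is not a binding site.

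PLA2G2A encodes a secreted phospholipase A that frees fatty acids from phospholipids and kills Gram-positive bacteria. It lies on the minus strand of chromosome 1 (chr1:19975431-19980416, GRCh38, GENCODE v44). In epithelial cells its level was 65.6 CPM (63.8 to 67.5, 5000 UMIs) in CNT and 763 CPM (756 to 769, 53486 UMIs) in 3CK. That is 11.6-fold higher in the treated epithelium, a log2 ratio of 3.54 (3.50 to 3.58) that 98.8% of the 16809 tested genes did not reach. In mesenchymal cells the order was the opposite, with 177 CPM (171 to 183) in CNT and 98.3 CPM (92.0 to 105) in 3CK, a log2 ratio of -0.85. So the class with the higher level changed between the libraries: epithelial over mesenchymal was -1.43 on the log2 scale in CNT and 2.96 in 3CK. This swap was not tested against a spread between samples.

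The gene was held by few cells in CNT and by many in 3CK. With every cell thinned to 5000 UMIs, so that deep and shallow cells compare, 10.5% of 1062 CNT epithelial cells (8.76% to 12.6%) and 52.2% of 776 3CK epithelial cells (48.6% to 55.8%) had a PLA2G2A UMI. The unthinned shares were 25.8% and 76.7%. Thinning left out 598 and 240 epithelial cells under 5000 UMIs, and 254 and 17 mesenchymal cells. Among epithelial cells of at least 10000 UMIs, called deep below, 15 of 1013 CNT cells held 50% of the PLA2G2A UMIs, and the highest cell alone held 12.1%. In 3CK it took 47 of 730 cells, and the highest held 2.6%. Without the highest cell of each library the epithelial log2 ratio was 3.68. In CNT mesenchymal cells 6 of 311 cells held 50% of the UMIs, so that level rests on few cells. The thinned mesenchymal shares, 16.3% and 21.5%, ran against the summed levels, and no order is read from them.

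Free RNA can put transcripts into cells that do not express them, so the level in the other class was set beside genes of the marker lists. In 3CK, PLA2G2A in mesenchymal cells stood at 12.9% of its epithelial level, while the 7 hepatic markers stood at 0.935% to 2.91% of theirs. The 7 enterocyte markers stood at 0% to 72.3% (median 2.22%). ANPEP was highest, with 374 mesenchymal UMIs, and RBP2 was next at 9.16%, on 1 mesenchymal UMI. Whether the ANPEP transcripts in mesenchymal cells are their own was not tested. In CNT, HPGD in mesenchymal cells stood at 6.49% of its epithelial level, against 2.17% to 4.16% for the hepatic markers. The enterocyte markers stood at 1.6% to 10.5%, with ANPEP highest and ALPI next at 3.04%. So PLA2G2A in 3CK and HPGD in CNT were above every marker of these lists but ANPEP. In the other direction, PTGES, PTGS2 and PTGDS in CNT epithelial cells stood at 18.4%, 19.3% and 32.1% of their mesenchymal levels. The 10 mesenchymal markers had a median of 4.37% there (3.16% to 28.3%), with VIM highest and LUM next at 10.1%. TTR had a UMI in 97.5% of thinned CNT mesenchymal cells and 66.4% of 3CK ones, and COL1A1 in 16.2% and 6.19% of epithelial cells.

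PLA2G4A encodes the cytosolic phospholipase A that frees arachidonic acid inside the cell after calcium signals. It lies at chr1:186828949-186988981 on the plus strand, 148026 bases from PTGS2, with no protein-coding gene between them. Its level in epithelial cells was 1.04 CPM in CNT (79 UMIs) and 1.48 CPM in 3CK (104 UMIs). In mesenchymal cells it was 8.04 CPM (158 UMIs) and 7.02 CPM (64 UMIs). The mesenchymal ratio between libraries, -0.20 on the log2 scale with an interval of -0.64 to 0.23, was within counting error. The class difference was not: mesenchymal cells were 7.75-fold higher in CNT and 4.73-fold higher in 3CK.

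PTGS1, the cyclooxygenase known as the housekeeping form, was near the limit of detection. It was at 0.315 CPM (24 UMIs) in CNT and 0.428 CPM (30 UMIs) in 3CK epithelial cells, and at 2.14 CPM (42 UMIs) and 0.658 CPM (6 UMIs) in mesenchymal cells. The mesenchymal difference passed 2-fold, 3.25-fold lower in 3CK with an interval of 1.37 to 9.35, and its log2 ratio of -1.70 was -2.43 without the highest cell of each library. The epithelial log2 ratio of 0.44 had an interval of -0.38 to 1.28. After thinning, no CNT epithelial cell of 1062 had a UMI, which allows a share of up to 0.282%, against 5 of 776 in 3CK, and with 10000 UMIs per cell the difference changed sign, to -0.022 percentage points. PTGS1 (chr9:122370530-122395703, plus strand) overlaps a long noncoding RNA gene on the same strand that the feature list also holds, so its count can miss shared reads.

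PTGS2, the inducible cyclooxygenase and the target of anti-inflammatory drugs, was higher in 3CK in both classes. It lies at chr1:186671791-186680922 on the minus strand. In epithelial cells it was at 5.83 CPM (5.30 to 6.40) in CNT and 19.2 CPM (18.2 to 20.3) in 3CK, which is 3.30-fold higher, with a log2 ratio of 1.72 (1.57 to 1.88). The mesenchymal level was 30.2 CPM (27.8 to 32.7) and 51.1 CPM (46.6 to 56.0), a log2 ratio of 0.76 (0.58 to 0.94), which reached 2-fold, at 1.00, only with equal weight per cell among the 11 alternatives. Mesenchymal cells had the higher level in both libraries, and the gap in summed UMIs was 5.18-fold in CNT and 2.66-fold in 3CK. With equal weight per cell, epithelial over mesenchymal was -1.22 on the log2 scale in CNT. In 3CK it ran from -1.66 to -1.15 over the 11 alternatives. So whether the gap was narrower in 3CK depends on how cells are weighted. Few cells carried it: 2.17% and 6.96% of thinned epithelial cells, and 7.81% and 13.1% of thinned mesenchymal cells. In 3CK mesenchymal cells of at least 10000 UMIs, 4 of 106 cells held 50% of the UMIs and the highest cell 17.5%. When each cell was given equal weight the epithelial log2 ratio was 1.07 in place of 1.72. PTGS2 overlaps the antisense gene PACERR, and the sources used here do not say whether counting used strand, so reads of the pair may not be told apart.

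PTGES encodes the inducible microsomal prostaglandin E synthase, which works downstream of PTGS2. In mesenchymal cells it was at 38.7 CPM (36.0 to 41.6) in CNT and 72.1 CPM (66.7 to 77.8) in 3CK, which is 0.90 (0.74 to 1.05) on the log2 scale. In epithelial cells it was at 7.14 CPM (6.55 to 7.77) and 6.66 CPM (6.07 to 7.29), a ratio of -0.10 (-0.28 to 0.08). The mesenchymal difference was just under 2-fold, and it passed 2-fold under 3 of 11 alternative settings, where it reached 1.08. PTGES was 5.42-fold higher in mesenchymal than epithelial cells in CNT and 10.8-fold higher in 3CK. Of all mesenchymal cells, 33.6% in CNT and 62.1% in 3CK had a PTGES UMI, but at equal depth the shares were 14.4% (10.7% to 18.7%) and 18.7% (11.8% to 27.4%). The gene lies at chr9:129738331-129753042 on the minus strand.

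PTGDS encodes the lipocalin-type prostaglandin D synthase, which also carries lipids. It was lower in 3CK in both classes when UMIs were summed: 34.8 CPM (33.5 to 36.2) in CNT and 23.3 CPM (22.2 to 24.5) in 3CK epithelial cells, and 108 CPM (104 to 113) and 84.8 CPM (78.9 to 91.0) in mesenchymal cells. The log2 ratios, -0.58 and -0.35, stayed within 2-fold. With equal weight per cell the mesenchymal ratio was 0.57, and the thinned mesenchymal shares, 15.3% and 24.3%, also ran against the sums, so no order is read from them. Mesenchymal cells were higher than epithelial cells in both libraries, 3.11-fold and 3.64-fold. Its position is chr9:136975092-136981742 on the plus strand.

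HPGD encodes the hydroxyprostaglandin dehydrogenase that inactivates prostaglandins by oxidation. It lies on chromosome 4 (chr4:174490175-174523154, minus strand) and overlaps a noncoding gene on the opposite strand. In epithelial cells it was at 379 CPM (374 to 383, 28854 UMIs) in CNT and 61.8 CPM (60.0 to 63.7, 4334 UMIs) in 3CK. The treated epithelium was 6.13-fold lower (5.93 to 6.33), a log2 ratio of -2.62 at the 2.19th percentile of the tested genes. This was a difference of most cells: 70.1% of thinned CNT epithelial cells (67.2% to 72.8%) and 21.5% of 3CK ones (18.7% to 24.6%) had an HPGD UMI, and the median cell of at least 10000 UMIs had 2.79 and 0.279 UMIs per 10000. In CNT 177 of 1013 such cells held 50% of the UMIs, in contrast with the 15 cells for PLA2G2A. In mesenchymal cells HPGD was at 24.6 CPM in CNT against 7.24 CPM in 3CK, a log2 ratio of -1.76 (-2.16 to -1.39). That value rests on 66 UMIs in 3CK, of which 1 cell held 53.2% of those in deep cells, and it was -2.46 without the highest cell of each library, -1.10 with a stricter collagen minimum and -2.98 with equal weight per cell. Epithelial cells were 15.4-fold higher than mesenchymal cells in CNT and 8.54-fold higher in 3CK.

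PTGER4 encodes a receptor for prostaglandin E that signals through cyclic AMP, the second messenger that the Forskolin of the shared medium also raises. It was the only member besides HPGD with more transcript in epithelial than mesenchymal cells in CNT, at 4.69 CPM (357 UMIs) against 0.916 CPM (18 UMIs), which is 5.12-fold. In 3CK it was at 3.44 CPM (241 UMIs) in epithelial cells against 3 UMIs in mesenchymal cells, a log2 ratio of 3.38 with an interval of 1.82 to 5.67. Epithelial cells were 1.36-fold lower in 3CK than in CNT (1.15 to 1.61), and the mesenchymal log2 ratio of -1.48 had an interval of -3.88 to 0.30. With equal weight per cell the difference between classes was 0.32 in CNT and -1.36 in 3CK on the log2 scale, so its direction depends on how shallow cells are weighted. The gene (chr5:40679915-40693735, plus strand) overlaps TTC33 on the opposite strand.

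Between the classes, 2 of 8 members were 2-fold or more higher in CNT epithelial cells and 6 of 8 were 2-fold or more lower, beside 15.1% and 26.1% of all 18033 genes tested. In 3CK 3 of the 7 members that passed 1 CPM were higher and 4 were lower, beside 16.8% and 19% of 17177 genes. PLA2G2A is the member that changed sides. PLA2G4A, PTGS2, PTGES and PTGDS were more than 2-fold higher in mesenchymal cells in both libraries, and HPGD and PTGER4 in epithelial cells. With equal weight per cell, where shallow cells count as much as deep ones, the CNT difference was 1.18 for HPGD, -0.67 for PTGDS, -1.22 for PTGS2, -1.39 for PTGES and -3.84 for PTGS1 on the log2 scale, and the 3CK difference was 1.84 for HPGD.

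The cells in neither class carried the members at levels of their own. PTGDS was at 141 CPM (132 to 151) there in CNT, above both named classes, and at 81.0 CPM in 3CK. The CNT level rests on few cells: 2 of the 134 deep cells there held 50% of the PTGDS UMIs, and the highest held 40.4%. HPGD was at 216 and 32.1 CPM, PLA2G2A at 29.6 and 49.7 CPM, PTGS2 at 9.48 and 12.7 CPM and PTGES at 26.5 and 30.3 CPM.

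**Figure D2:**
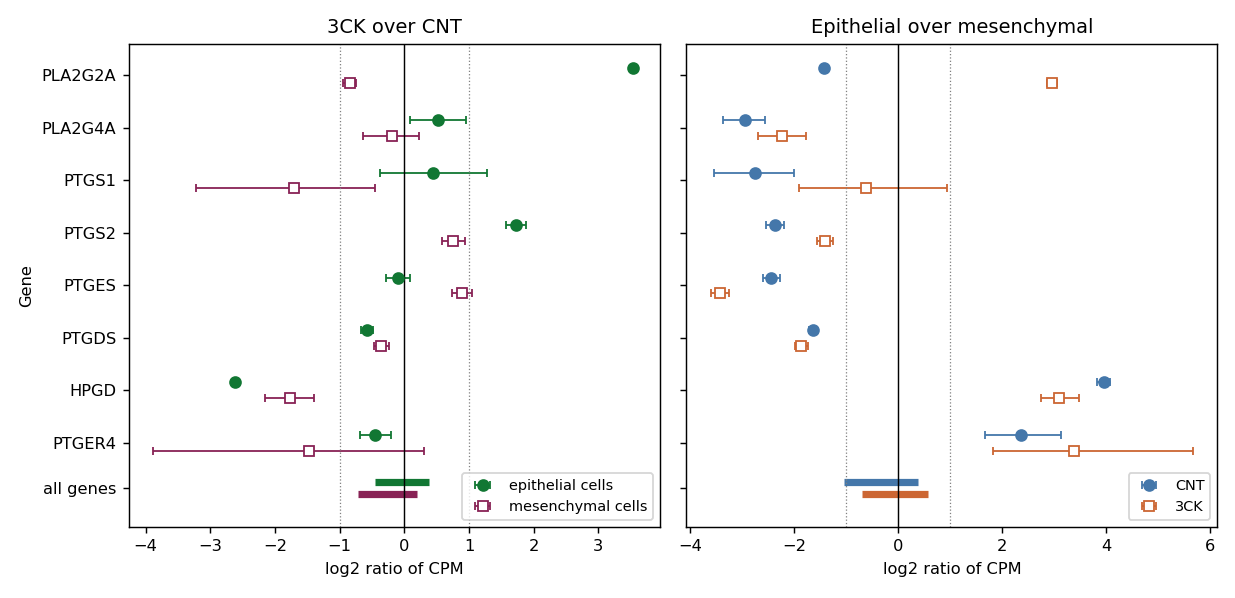
Log2 ratios of CPM for each gene (y axis), left for 3CK over CNT in epithelial (filled) and mesenchymal cells (open), right for epithelial over mesenchymal cells in CNT (filled) and 3CK (open); thin bars are 95% counting intervals, thick bars the middle 50% of all genes, and dotted lines mark 2-fold. On the left PLA2G2A lies at 3.54 in epithelial cells and -0.85 in mesenchymal cells, and HPGD lies left of -1 in both.

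**Figure D3:**
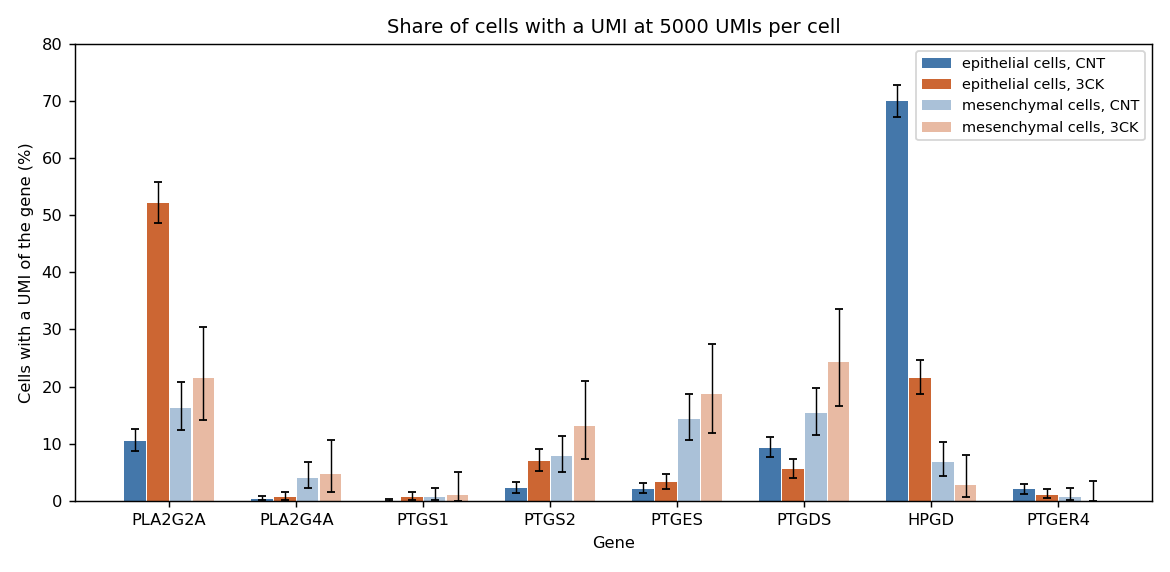
Percent of cells with at least 1 UMI of each gene after thinning every cell to 5000 UMIs, by class and library; bars start at 0 and error bars are 95% exact binomial intervals. PLA2G2A goes from 10.5% to 52.2% of epithelial cells and HPGD from 70.1% to 21.5%.

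The epithelium held cells with much and with little TTR, so the members were followed in 3 groups of the deep epithelial cells, equal in size and ranked by TTR within each library. PLA2G2A was higher in 3CK in each group, at 54.2 and 546 CPM in the lowest, 76.7 and 814 CPM in the middle and 64.8 and 894 CPM in the highest. HPGD was lower in 3CK in each group, at 353 and 61.8, 409 and 53.0, and 374 and 70.0 CPM. These differences were thus present along the whole TTR range, although the ranges of TTR itself differ between the libraries. PTGS2 sat with low TTR in 3CK, at 26.9, 22.5 and 9.28 CPM from the lowest to the highest group, and at 6.91, 6.57 and 3.95 CPM in CNT. PTGES, whose epithelial sum hardly differed, was at 15.2 CPM in CNT against 7.61 CPM in 3CK in the lowest group, but at 1.99 and 4.77 CPM in the highest. The log2 ratio of 3CK over CNT was 1.26 (0.78 to 1.75) in the highest group, and the lowest group differed the other way. The highest group rests on 54 UMIs in CNT and 116 in 3CK, where 1 cell held 27.6%. Groups of the same rank are not alike in TTR. The 3CK highest group had a median of 353 per 10000, below the 540 of the CNT middle group, where PTGES was at 5.14 CPM. CNT epithelial cells with 5 or more collagen UMIs per 10000, 70 deep cells, had PTGES at 19.7 CPM, against 5.82 CPM in the others. Without all such cells the epithelial PTGES ratio was 0.05. At any depth, 497 of 1660 CNT and 49 of 1016 3CK epithelial cells had that much collagen, so the class differed in make-up between the libraries. In the deep ones, 70 and 13 cells, PLA2G2A was 2.50-fold higher in 3CK, against 14.1-fold in the other deep cells. HPGD was 3.30-fold lower in them, against 6.37-fold. PTGDS was at 71.6 and 19.8 CPM in them, against 30.2 and 23.2 CPM. These values rest on few cells. The 3CK PTGDS level is 25 UMIs, 48% of them in 1 cell, and 1 cell held 45.7% (CNT) and 34.0% (3CK) of the PLA2G2A UMIs.

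**Figure D4:**
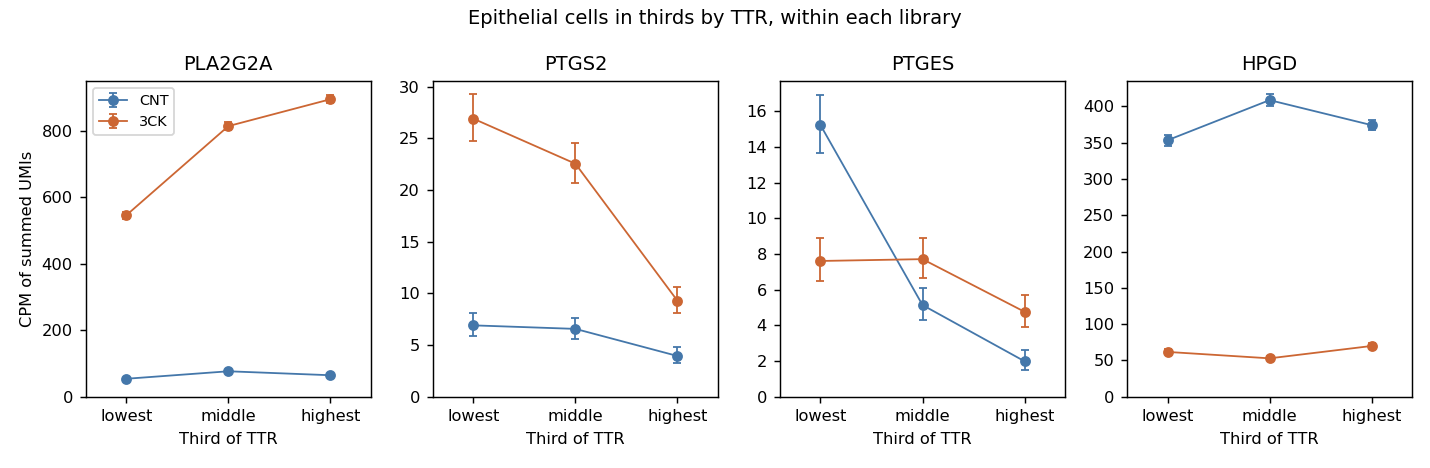
CPM of summed UMIs (y axis, from 0) of PLA2G2A, PTGS2, PTGES and HPGD in epithelial cells of at least 10000 UMIs, in 3 equal groups ranked by TTR within each library (x axis), for CNT (blue) and 3CK (orange), with 95% Poisson intervals. The PTGES lines cross: CNT is higher in the lowest group, at 15.2 against 7.61 CPM, and 3CK in the highest, at 4.77 against 1.99 CPM. Groups of the same rank have different TTR levels in the 2 libraries.

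Within treated mesenchyme, the 29 deep cells with an IL1B UMI after thinning had PTGS2 at 106 CPM and the 77 without at 25.1 CPM, a log2 ratio of 2.08 (1.80 to 2.37). PTGES was at 106 and 56.4 CPM in the same cells. PLA2G4A was at 10.7 and 5.34 CPM, on 31 and 33 UMIs, with a log2 interval of 0.24 to 1.75. So the summed levels of these 3 enzymes were higher where IL1B was seen. The other enzymes of the same steps were not: PLA2G2A was at 65.3 and 114 CPM and PTGDS at 67.0 and 92.6 CPM, and PTGS1 had 0 and 6 UMIs. Within treated epithelium, the 265 deep cells with a UMI of LCN2, an antimicrobial protein, after thinning had PLA2G2A at 1124 CPM and the 465 without at 551 CPM. PTGDS was higher there too, at 35.2 against 16.1 CPM, and PTGS2 was lower, at 14.0 against 22.2 CPM. Few cells weigh much in the IL1B group: the top cell of each gene held 53.2% of the PLA2G2A, 32.8% of the PTGES and 26.2% of the PTGS2 UMIs. In the group without IL1B it held 37.4% of the PTGS2 UMIs. These are cells of 1 library, and no spread between samples stands behind them. Cycling cells showed the same directions for PLA2G2A and HPGD: among 39 CNT and 27 3CK cycling epithelial cells PLA2G2A was at 42.0 and 153 CPM and HPGD at 235 and 74.5 CPM. There 1 cell held 45.7% (CNT) and 42.3% (3CK) of the PLA2G2A UMIs, and 11.4% and 38.1% of the HPGD UMIs.

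Members were also counted together in single thinned cells. In CNT epithelial cells 88 of the 112 with PLA2G2A also had HPGD, where 744 of all 1062 cells had HPGD. In 3CK epithelial cells 405 of 776 had PLA2G2A, 54 had PTGS2 and 32 had both, so 7.9% of cells with PLA2G2A and 5.93% of cells without it had PTGS2. HPGD was seen in 78.6% of the CNT epithelial cells with PLA2G2A and in 69.1% of those without, and in 19% and 24.3% in 3CK, where the order was the opposite. In 3CK mesenchymal cells 14 had PTGS2, 20 had PTGES and 5 had both. At this depth most cells with a low transcript are missed, and the counts of joint cells are given as a description.

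The genes most like each member were sought across deep cells of the class and library with its highest level, by Pearson's r of log-transformed UMIs per 10000. Points share a library and depth, so r is only a description. PLA2G2A over 730 3CK epithelial cells was closest to CEACAM6 (0.47), MUC13 (0.46) and CEACAM5 (0.45), which encode cell-surface glycoproteins of the gut epithelium. PTGS2 over 106 3CK mesenchymal cells was closest to its neighbour PLA2G4A (0.58), then ELK3 (0.53) and NRG1 (0.50). The reverse search in another library gave the same pair, PLA2G4A with PTGS2 at 0.40 over 311 CNT mesenchymal cells. PTGES over the 106 cells was closest to DHRS3 (0.50), STC1 (0.45) and FDCSP (0.41). PTGDS over 311 CNT mesenchymal cells was closest to ASAH1 (0.40), EGFL7 (0.40) and TYROBP (0.39), the last a marker of the leukocyte list. HPGD over 1013 CNT epithelial cells was closest to SELENOP (0.45), FABP1 (0.43) and HEPH (0.42), and PTGER4 over the same cells to C11orf86, CREB3L3 and TM4SF4 (0.31 each). PTGS1 was seen in 6.75% of its cells, under the minimum of 10%.

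The other genes of the pathway were followed as a list of 50. In epithelial cells 31 passed 1 CPM, and 5 were 2-fold higher and 8 were 2-fold lower in 3CK, beside 8.48% and 12.1% of all genes. In mesenchymal cells 36 passed, with 8 higher and 5 lower, beside 6.05% and 16.7%. Over all cells 34 passed, with 7 higher and 6 lower, beside 6.96% and 11.3%. The list's median log2 ratio was -0.18 in epithelial and 0.03 in mesenchymal cells, beside 0.01 and -0.21 for all genes.

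Of the genes listed under arachidonate release, 10 passed 1 CPM in epithelial cells, with 2 higher and 4 lower in 3CK, beside 8.48% and 12.1% of all genes. The 4 lower ones belong to the secreted phospholipase family, as PLA2G2A does, and whether each is active was not tested. PLA2G10 was at 30.6 CPM in CNT against 10.9 CPM in 3CK epithelial cells, PLA2G12B at 25.6 and 6.52 CPM, PLA2G12A at 94.5 and 37.5 CPM and PLA2G1B at 4.36 and 0.699 CPM. The cytosolic enzyme PLA2G4C went the other way, at 3.73 and 14.2 CPM in epithelial and 5.24 and 12.6 CPM in mesenchymal cells. MGLL, which frees arachidonic acid from an endocannabinoid, was at 56.9 and 196 CPM in epithelial cells. PLA2G10 was found in no 3CK mesenchymal cell and was at least 33-fold higher in epithelial cells there, against a floor of 3 UMIs over the class.

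Of the terminal synthases, AKR1B1, an aldose reductase that can make prostaglandin F, was at 46.7 CPM in CNT against 281 CPM in 3CK mesenchymal cells, a log2 ratio of 2.59 (2.48 to 2.70). In epithelial cells it was at 15.0 and 19.4 CPM. AKR1C3, which has near-identical family members that share reads, was at 50.2 and 15.3 CPM in epithelial cells. The prostacyclin synthase PTGIS was lower in 3CK in both classes, at 4.12 and 0.927 CPM in epithelial and 4.43 and 2.19 CPM in mesenchymal cells. The constitutive prostaglandin E synthase PTGES3 did not pass 2-fold, at 132 and 193 CPM in epithelial cells. Of the synthases that passed 1 CPM, 0 of 8 were 2-fold higher and 3 lower in epithelial cells, beside 8.48% and 12.1% of all genes. In mesenchymal cells 3 of 9 were higher and 1 lower, beside 6.05% and 16.7%.

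Opposite directions marked the transporters, which carry prostaglandins across the membrane. SLCO2A1, the uptake carrier that feeds HPGD, was at 11.2 CPM in CNT against 27.3 CPM in 3CK epithelial cells, so uptake carrier and dehydrogenase differed in opposite directions. In mesenchymal cells it was at 3.05 and 0.658 CPM (60 and 6 UMIs). ABCC4, an exporter, was at 12.0 and 20.1 CPM in epithelial and 76.0 and 29.3 CPM in mesenchymal cells.

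Of the 8 other prostanoid receptors, 6 passed 1 CPM in CNT and 5 in 3CK. All of these were more than 2-fold lower in epithelial than mesenchymal cells, beside 26.1% of all genes in CNT and 19% in 3CK. But 0 of the 8 reached 1 CPM in epithelial cells of either library, so each passed through its mesenchymal level alone. That minimum fixed their direction, and the shares of all genes, which were not so restricted, are no measure for it. PTGDR, a prostaglandin D receptor, passed in neither library, with 0.88 CPM in epithelial and 0.458 CPM in mesenchymal cells of CNT. PTGIR, the prostacyclin receptor, was at 17.2 CPM in CNT against 34.1 CPM in 3CK mesenchymal cells and at 0.617 and 0.727 CPM in epithelial cells. PTGER2, another prostaglandin E receptor, was at 2.24 and 5.27 CPM in mesenchymal cells, and the thromboxane receptor TBXA2R at 3.10 and 8.23 CPM. Of the lipoxygenase branch, ALOX12 was at 0.21 and 2.25 CPM and ALOX5AP at 1.80 and 5.46 CPM in epithelial cells.

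**Figure D5:**
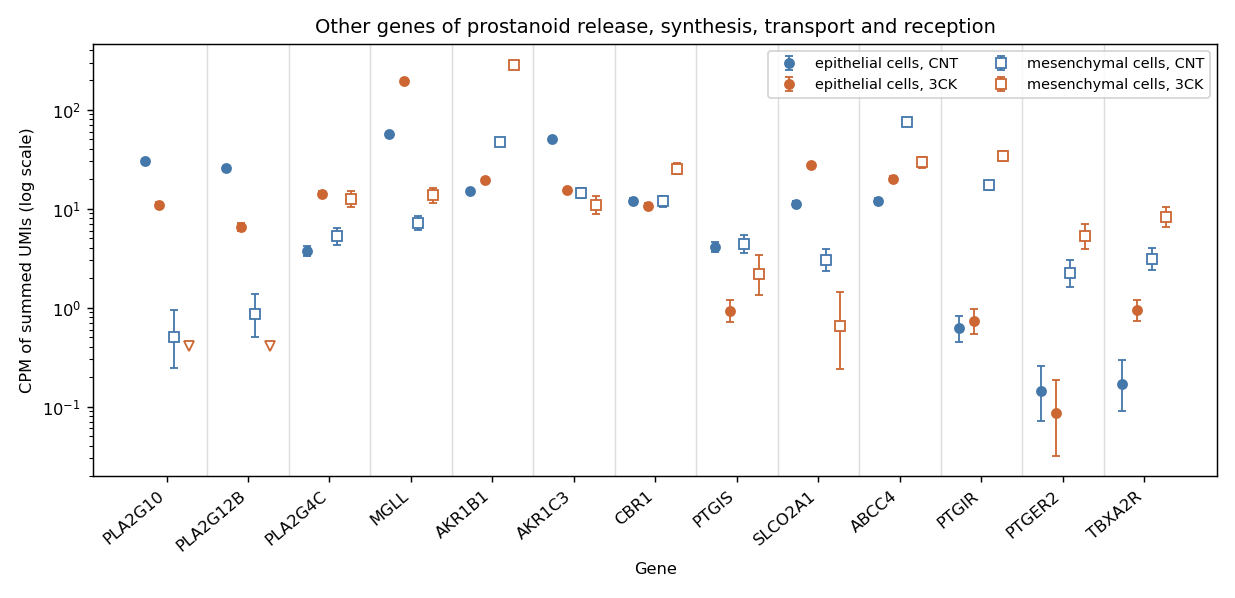
CPM of summed UMIs (log y axis) for 13 other genes of the pathway (x axis) by class and library, with 95% Poisson intervals; triangles mark the upper limit for genes with 0 UMIs. PTGIR, PTGER2 and TBXA2R are higher in mesenchymal cells of both libraries, and AKR1B1 in 3CK mesenchymal cells reaches 281 CPM.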

How the data were processed

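Single-cell 3' libraries of 1 untreated and 1 treated organoid culture were used. The authors deposited tables of raw UMI counts (genes by barcodes) with no normalisation. Per the submitters' processing notes they were made with Cell Ranger 7.1.0 on GRCh38. The annotation is not given in the sources used here, and gene positions come from GENCODE v44.

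Barcodes with at least 500 genes and at most 20% mitochondrial UMIs were kept. Scrublet (scanpy 1.11.5) marked only 1 and 2 doublets by its own threshold, so barcodes with the top scores were left out at a rate of 0.8% for every 1000 (52 CNT and 16 3CK barcodes). Doublets may remain. UMIs were summed per class and divided by the class total (CPM). Intervals are exact Poisson for levels, exact Clopper-Pearson for shares, and from the exact binomial share of both counts for ratios. A gene counted as 2-fold different at a log2 ratio of 1 or more in size with at least 1 CPM in the higher group. Ratios against 0 used a floor of 3 UMIs. With 1 library per group no p-value was computed.

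All 8 members are named. Of the pathway list, the genes highest, most and least changed in each role, or past 2-fold, could be named, and the 3 most alike genes per member. The members and lists were chosen with earlier results of these data known. The ratio and thinning code was tested on simulated data. Alternatives included TMM scaling (edgeR 4.0.16), other filters, class rules and thinning depths. PTGR3 was matched by its identifier (listed as ZADH2).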

Additional observations from a re-analysis of the deposited data

Results flagged for a closer look

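In 6 genes the epithelial and mesenchymal log2 ratios of 3CK over CNT pointed in opposite directions, with counting intervals that exclude 0 in both. With 1 library per group the difference between the classes was not tested against a spread between samples. PLA2G2A was at 3.54 in epithelial and -0.85 in mesenchymal cells. The mesenchymal value follows few cells: 6 of 311 deep CNT cells held 50% of the UMIs, the thinned share of cells was 16.3% in CNT and 21.5% in 3CK, and the median deep cell had 0 and 0.153 UMIs per 10000. CBR1, a carbonyl reductase, was at -0.18 and 1.10. SLCO2A1 was at 1.28 and -2.21, and ABCC4 at 0.74 and -1.38. ALOX12B was at -0.52 and 4.14, on 6 mesenchymal UMIs in CNT and 49 in 3CK, and ALOX15B at -1.51 and 0.79.

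The barcodes removed by the filters, 770 in CNT and 243 in 3CK, enter no comparison, and they also carried the members. PLA2G2A was at 383 CPM in removed 3CK barcodes (46.8 in CNT), PTGS2 at 29.4 CPM (5.74 in CNT) and PTGES at 16.8 CPM (7.75 in CNT). Lower in removed 3CK barcodes were HPGD, at 34.7 CPM (174 in CNT), and PTGDS, at 37.3 CPM (52.0 in CNT).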

How the results depend on the processing

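Where the counting interval of a member's log2 ratio excluded 0, 3 values under other settings reversed, all with equal weight per cell: PLA2G4A in epithelial cells (-0.025), PTGDS in mesenchymal cells (0.57) and PTGER4 between classes in 3CK (-1.36). Of the differences in thinned shares, PTGS1 in epithelial cells (-0.022 points at 10000 UMIs), PTGDS in epithelial cells (1.67 at 10000 UMIs, 4.23 without thinning) and PTGDS in mesenchymal cells (-2.47 at 2000 UMIs) reversed. The count of 2 members higher over all cells became 1 with the stricter filter, with a total without the 50 most abundant genes, with barcodes of at least 10000 UMIs and with equal weight. In mesenchymal cells the count of 0 members higher became 1 with TMM factors or collagens of at least 10 per 10000 and 2 with equal weight. Between classes in CNT, 1 member was higher with equal weight. Of the 50 other pathway genes, a minimum of 10 CPM left 4 higher over all cells, 3 higher and 4 lower in epithelial cells, 3 higher and 1 lower in mesenchymal cells, 4 lower between classes in CNT, and 6 higher and 4 lower in 3CK. A minimum of 0.1 CPM gave 10 lower over all cells and 8 lower in mesenchymal cells. In mesenchymal cells 13 were higher with equal weight, 5 without the highest cell of each gene in each library (an alternative added after seeing the data), and 3 were lower with the stricter collagen minimum. Fewer genes pass a higher minimum by construction, and the cause of the other shifts was not tested. TMM factors moved the median of all genes by 0.41 between classes in CNT and by 0.19 in mesenchymal cells. No paired analysis was possible because each group is 1 library. With 124 treated mesenchymal cells, PTGS1 and PTGER4 there rest on 6 and 3 UMIs.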
